A study of Mus musculus with 25 samples.

Results

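Messenger RNA was measured for 8 genes that are linked to ferroptosis, apart from Gpx4 itself: Acsl4, Lpcat3, Aifm2, Gch1, Dhodh, Slc3a2, Ptgs2 and Chac1. They were taken by symbol, and the abundance of each was summed over all of its annotated transcripts. These are 8 of 35969 genes with a summed value, and 7 of them reached the mean level of 1 that was required for testing, the exception being Ptgs2. Left ventricle from 25 male mice was sequenced, in 5 groups of 5. WT CNTL and GPx4+/- CNTL mice ate a low-fat, starch-based chow, while WT HFHS and GPx4+/- HFHS mice ate a high-fat, high-sucrose diet based on lard, with added cholesterol and sucrose. WT HFHS + Carnosine mice ate the HFHS diet and drank 80 mM carnosine, a histidine-containing dipeptide, from 7 weeks after the diet began. GPx4+/- mice were heterozygous for loss of Gpx4, were maintained by backcross to C57BL6/J and were littermates of the WT mice. All mice were 8 to 10 weeks old at the start and stayed on diet for 16 weeks. Before euthanasia every mouse was fasted and injected with either dextrose or saline. The labels do not say which mouse received which, so this cannot be told apart from the spread within groups. Each library was 1 mouse, and GPx4+/- mice given carnosine were not analysed here.

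Ferroptosis is a form of cell death in which polyunsaturated fatty acids held in membrane phospholipids are peroxidised with the help of iron. Acsl4, an acyl-CoA synthetase that prefers arachidonic and adrenic acid, and Lpcat3, a lysophospholipid acyltransferase, place those fatty acids into phospholipids. GPX4 removes the resulting lipid hydroperoxides with glutathione, and several systems act beside it. Aifm2 (FSP1) and Dhodh reduce coenzyme Q at the plasma membrane and in the inner mitochondrial membrane, and Gch1 is the first enzyme of tetrahydrobiopterin synthesis. Slc3a2 (CD98hc, 4F2hc) is the heavy chain of the cystine/glutamate exchanger that supplies cysteine for glutathione. Chac1 cleaves glutathione in the cytosol and is a target of the stress-induced transcription factor ATF4. Ptgs2 (cyclooxygenase 2) makes prostaglandins and is widely used as a transcript marker of ferroptosis.

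Gpx4 followed the genotype labels in every mouse. Its level was 670 ± 47.2 scaled TPM (SD, n = 5) in WT CNTL, 712 ± 67.4 in WT HFHS and 696 ± 30.2 with carnosine, against 306 ± 43.2 in GPx4+/- CNTL and 352 ± 22.0 in GPx4+/- HFHS. Scaled TPM is the deposited TPM, an abundance normalised for transcript length, after each library was divided by a factor of 0.864 to 1.16, taken from the median ratio over 11879 genes. Mitochondrial transcripts took 31.3% to 48.7% of each library. All 8 cardiomyocyte markers were present, summing to between 42868 and 53926 scaled TPM. The libraries also held other tissue: atrial markers summed to 169 to 4709 in WT CNTL, 76.5 to 331 in WT HFHS, 140.03 to 660.1 with carnosine, 191 to 7534 in GPx4+/- CNTL and 84.4 to 2805 in GPx4+/- HFHS. Hepatocyte markers reached 1259 in a GPx4+/- CNTL mouse. Results were therefore also computed without 6 libraries that stood apart on atrial, liver or smooth muscle genes (WT CNTL 3, WT HFHS 4, carnosine 2, GPx4+/- CNTL 1 and 2 and GPx4+/- HFHS 4).

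TPM is normalised for transcript length, so levels can be compared between genes. Over the 25 mice, Slc3a2 (26.7 ± 2.27 scaled TPM, SD) and Lpcat3 (25.3 ± 2.54) were the most abundant, followed by Aifm2 (18.2 ± 2.26), Dhodh (12.3 ± 1.61), Chac1 (5.05 ± 1.35), Acsl4 (2.45 ± 0.317), Gch1 (2.36 ± 0.378) and Ptgs2 (0.252 ± 0.137). Slc3a2 exceeded Lpcat3 in only 16 of the 25 mice and Acsl4 exceeded Gch1 in 15, so these neighbours were not separated by their spread. Every other gene exceeded the next in the order in all 25 mice, and Chac1 lay below Gch1 in 1 mouse (2.44 against 3.04, carnosine mouse 5). Slc3a2 lay above 77.2% of the 11984 genes tested, Chac1 above 32.7% and Gch1 above 14.9%. Gpx4 was more abundant than any member in every mouse. Over all 25 mice together, Chac1 was the most variable of the 7 tested members, with a coefficient of variation of 26.7% against 8.48% for Slc3a2. This figure includes the differences between groups, whose Chac1 means ran from 3.63 to 6.61 scaled TPM.

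**Figure D1:**
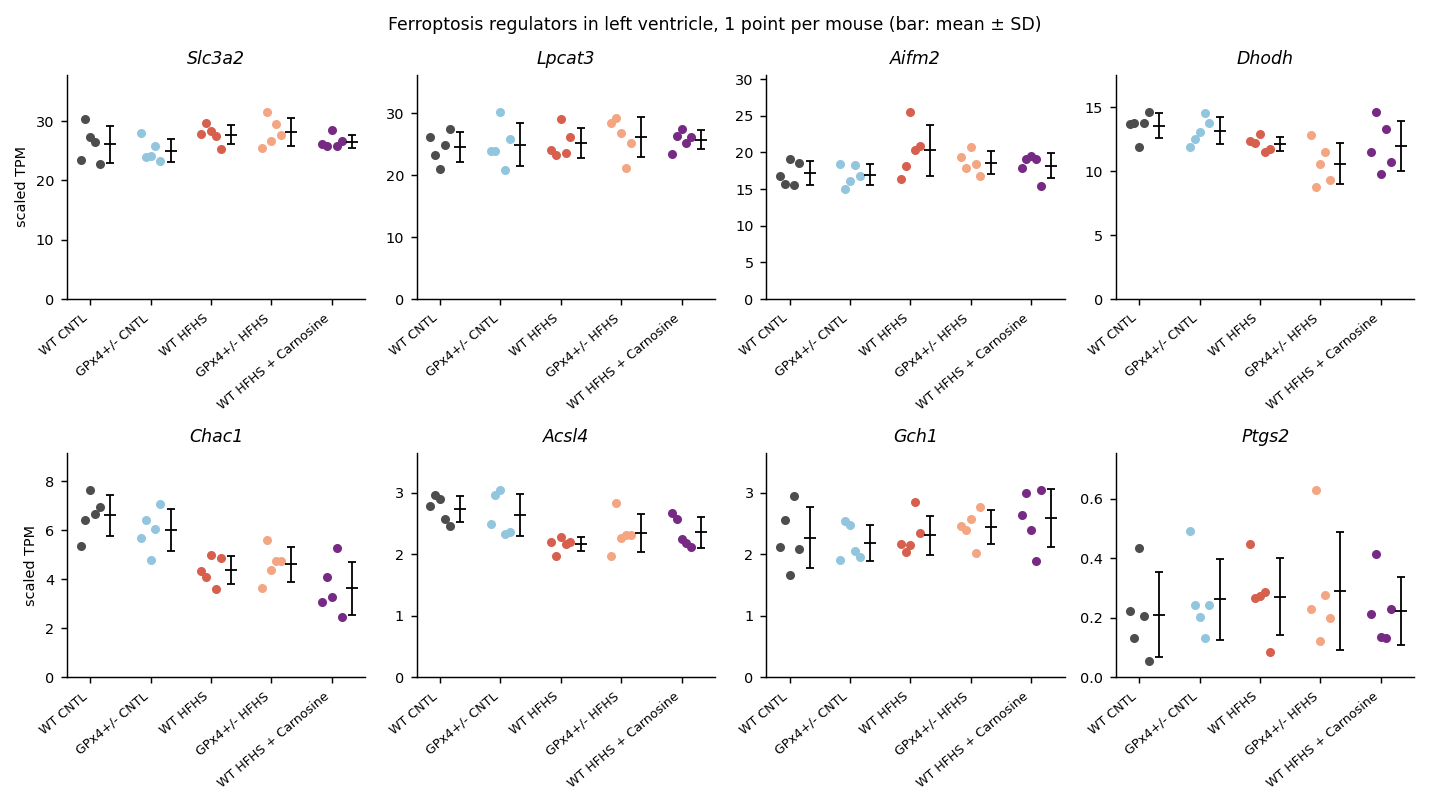
Scaled TPM (y axes, from 0) of the 8 genes in each of 25 left ventricles, by group (x axes), with 1 point per mouse and the mean ± SD beside the points. Chac1 lies at 5.36 to 7.63 in WT CNTL and at 3.59 to 4.99 in WT HFHS, and Ptgs2 reaches at most 0.628 in any mouse.

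The question of the diet comparison was how 16 weeks of HFHS feeding altered these genes. With both genotypes combined, Chac1, Dhodh and Acsl4 were lower on HFHS diet and no member was higher (limma on log2(scaled TPM + 0.5), Benjamini-Hochberg adjusted p under 0.05). That is 3 of the 7 tested members, where 8.33% of all genes tested were called, 4.68% higher and 3.65% lower. The members were chosen with earlier results of these data known, so this count is not independent of that choice. In WT mice alone, Chac1 was the only member called, against 1.18% of genes (0.659% higher and 0.526% lower). In GPx4+/- mice alone, Dhodh was the only member called, against 3.34% of genes (2.18% higher and 1.16% lower). The median log2 difference of the 7 members over both genotypes was 0.054, against -0.0024 for all genes. The balance of calls over all genes depended on scaling: 56.2% of the called genes were higher with scaled TPM over both genotypes and 19.9% with TPM as deposited, and in GPx4+/- mice these shares were 65.2% and 8.73%. With TPM as deposited, the median of all genes in GPx4+/- mice lay at -0.10 on the log2 scale. Chac1, Dhodh and Acsl4 were called lower over both genotypes on either scale.

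**Figure D2:**
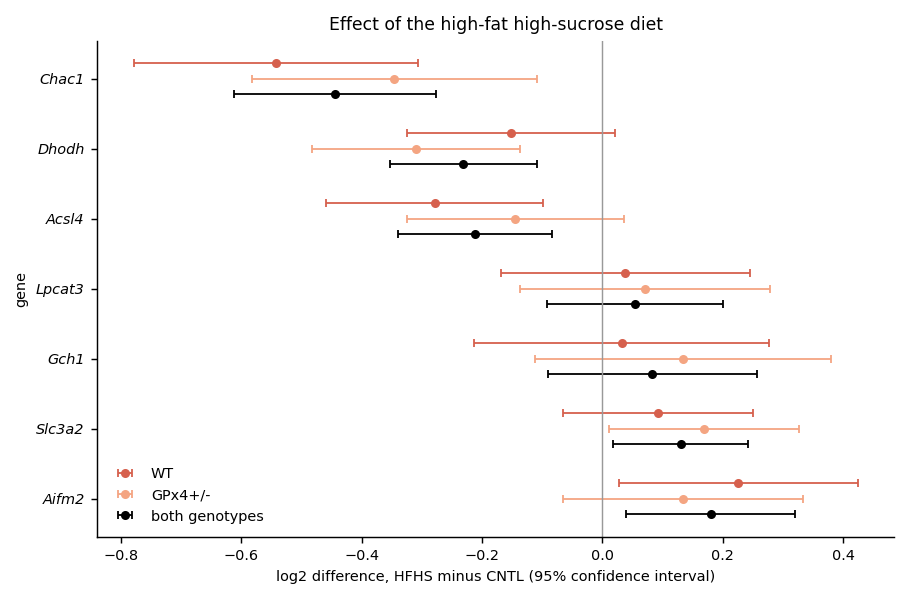
Log2 difference between HFHS and CNTL mice (x axis, with 95% confidence interval) of the 7 tested genes (y axis) in WT, in GPx4+/- and over both genotypes. Chac1 has the largest difference of the 7, at -0.44 over both genotypes, and the intervals of Lpcat3 and Gch1 include 0 in each of the 3 estimates.

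Chac1 showed the largest diet difference of the members. The gene lies at chr2:119351229-119354381 on the plus strand (GRCm38) and has 1 annotated transcript, so its value does not depend on how reads were shared among isoforms. The WT CNTL mice had 5.36, 6.42, 7.63, 6.67 and 6.95 scaled TPM and the WT HFHS mice 4.35, 4.11, 4.99, 3.59 and 4.86. These groups did not overlap, and the WT HFHS mean was 66.3% of the WT CNTL mean. The log2 difference in WT was -0.54 (SE 0.11, limma adjusted p = 0.0256, n = 5 per group). In GPx4+/- mice the values were 5.70, 6.41, 4.79, 6.04 and 7.07 on CNTL and 3.64, 5.61, 4.38, 4.73 and 4.74 on HFHS. These groups overlapped, and the difference of -0.35 (SE 0.11) did not pass the test (limma adjusted p = 0.102). Over both genotypes Chac1 fell by 0.44 (SE 0.080, limma adjusted p = 0.0019), and it remained called in each of the 10 alternative settings and in each of the 20 fits that left out 1 mouse. The WT call was less stable: it was lost with no filter on low values (limma adjusted p = 0.0595), without the 6 libraries (-0.43, limma adjusted p = 0.12), when all 25 mice entered 1 fit (limma adjusted p = 0.0563) and when WT CNTL 2, 4 or 5 or WT HFHS 2 or 4 was left out (highest limma adjusted p = 0.0661).

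The fall of Chac1 was set beside 15 genes that are ATF4, its targets or its partners. Over both genotypes 7 of these 15 rose on HFHS diet and none fell, with a median log2 difference of 0.22 over the list, where 4.68% of all genes rose and 3.65% fell. The list was chosen with earlier results of these data known, so its count is not independent of that choice. The 3 with the smallest p were Mthfd2, a mitochondrial folate enzyme (0.87, SE 0.12, limma adjusted p = 0.000152), Atf5, a transcription factor of the mitochondrial stress response (0.39, SE 0.068, limma adjusted p = 0.00133), and Trib3, a pseudokinase that restrains ATF4 (0.26, SE 0.072, limma adjusted p = 0.0303). The other 4, named here after their values were seen, were Psat1 (0.40), Asns (0.48), Ddit3 (0.22) and Ddit4 (0.54). Mthfd2 was 1.45 ± 0.226 scaled TPM in WT CNTL and 2.97 ± 0.623 in WT HFHS, and 1.89 ± 0.452 in GPx4+/- CNTL and 4.09 ± 1.02 in GPx4+/- HFHS. Atf4 itself was not called (0.13, limma adjusted p = 0.0953). The count of 7 was 3 to 7 when 1 mouse was left out, 5 without the 6 libraries and 2 with TPM as deposited or with no filter on low values, and 0 to 1 of the 15 were called lower when 1 mouse was left out and 0 in the other settings named. In WT mice 1 of the 15 rose (Mthfd2), against 0.659% of all genes, and in GPx4+/- mice 3 rose (Mthfd2, Atf5 and Trib3), against 2.18%. The Mthfd2 call in WT was lost in 3 of 10 alternative settings (with no filter, with TPM as deposited and without the 6 libraries) and without WT CNTL 1 or 2 or WT HFHS 2. In GPx4+/-, that of Trib3 was lost in 6 of 10 settings (highest limma adjusted p = 0.208) and 7 of 10 fits without 1 mouse, and that of Atf5 in 2 of 11 settings.

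ATF4 binds composite C/EBP-ATF elements, and the region upstream of Chac1 is shown because it holds matches to this kind of element. The letters TGATGNAA and TGACGNAA were searched on both strands in RefSeq windows of 250 bases before to 50 after each gene's start (GRCm38.p6). Of 32851 such windows, 3.97% held the first motif, 1.59% the second and 0.0761% both. The Chac1 window held both, and the bases before its annotated gene, chr2:119350992-119351228 on the plus strand, read as follows, with the matches in capitals. The second run in capitals is TGATGNAA read on the opposite strand.

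Chac1: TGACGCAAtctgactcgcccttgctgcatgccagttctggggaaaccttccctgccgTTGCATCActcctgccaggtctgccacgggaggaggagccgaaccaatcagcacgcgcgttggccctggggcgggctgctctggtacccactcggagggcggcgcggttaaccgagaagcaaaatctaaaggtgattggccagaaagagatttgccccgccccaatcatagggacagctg

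Among the 7 members with a window in the table, Gch1 was the other member with a match, to TGACGNAA. Of the 15 genes of the ATF4 list, all of which had a window, 4 held TGATGNAA (Asns, Atf3, Trib3 and Vldlr) and 1 held TGACGNAA (Atf3). The stretches around the matches of Gch1, Asns and Vldlr are shown in gene orientation, Asns as a list gene that rose and Vldlr (-0.091, limma adjusted p = 0.131) as a list gene that was not called; both were chosen after their values were seen.

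Gch1, chr14:47189483-47189512, minus strand: ggagagatccaTGACGCAAgaggctccggc

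Asns, chr6:7693214-7693243, minus strand: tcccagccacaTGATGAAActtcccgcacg

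Vldlr, chr19:27216809-27216838, plus strand: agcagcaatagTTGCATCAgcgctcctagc

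A match is a description of the letters and does not show binding. Gch1 shared only TGACGNAA with Chac1, and Asns and Vldlr shared only TGATGNAA with it. Atf3, of the ATF4 list, held both motifs, as Chac1 did.

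Other genes of glutathione synthesis and turnover gave a mixed picture on HFHS diet. Of 9 listed, 8 were tested, 2 rose and 1 fell over both genotypes, where 4.68% of all genes rose and 3.65% fell. Oplah, which opens the 5-oxoproline ring that γ-glutamyl cleavage releases, rose by 0.34 (SE 0.048, limma adjusted p = 0.000288). Chac2, the constitutive relative of Chac1 that also cleaves glutathione, rose by 0.33 (SE 0.070, limma adjusted p = 0.00733). Chac2 went from 7.62 ± 0.846 to 9.33 ± 1.67 scaled TPM in WT and from 7.25 ± 0.646 to 9.62 ± 0.610 in GPx4+/-. Over both genotypes the related genes Chac1 and Chac2 were thus called in opposite directions, but in neither genotype alone were both called. Chac2 was not called in WT. In GPx4+/- Chac2 was called (0.39, limma adjusted p = 0.04) and Chac1 was not (limma adjusted p = 0.102). That Chac2 call was lost in 5 of 11 alternative settings and in 9 of 10 fits without 1 mouse. Gclm, the modifier subunit of the rate-limiting ligase of glutathione synthesis, fell by 0.35 over both genotypes (SE 0.096, limma adjusted p = 0.0284). Its catalytic partner Gclc, named after its value was seen, was not called (-0.11, limma adjusted p = 0.268). Gclm was no longer called in 4 of 10 alternative settings and in 5 of 20 fits without 1 mouse, whereas Oplah and Chac2 were called in all of these.

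Acsl4 was low in these ventricles and lower again on HFHS diet. The gene lies at chrX:142317993-142390535 on the minus strand. Its values were 2.79, 2.97, 2.90, 2.57 and 2.47 scaled TPM in WT CNTL and 2.20, 1.98, 2.28, 2.16 and 2.21 in WT HFHS, with no overlap. They were 2.49, 2.97, 3.04, 2.33 and 2.37 in GPx4+/- CNTL and 1.97, 2.83, 2.27, 2.32 and 2.31 in GPx4+/- HFHS, which overlapped. Although the WT groups were separate, the WT difference of -0.28 (SE 0.086) was not called (limma adjusted p = 0.112), and neither was that of -0.14 in GPx4+/- (limma adjusted p = 0.395). Over both genotypes Acsl4 fell by 0.21 (SE 0.061, limma adjusted p = 0.036). This call was the least secure of the 3, being lost with no filter on low values (limma adjusted p = 0.0579), without the 6 libraries (-0.19, limma adjusted p = 0.166) and in 11 of the 20 fits without 1 mouse. Those 11 mice were WT CNTL 1, 2 and 3, GPx4+/- CNTL 2 and 3, WT HFHS 2 and 4 and GPx4+/- HFHS 1, 3, 4 and 5 (highest limma adjusted p = 0.0683). With a level near 2 scaled TPM, the added 0.5 makes these log2 differences smaller than the ratio of the means, which was 79.1% in WT.

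Lpcat3, which acts after Acsl4, was more abundant and showed no detectable diet difference. Its mean was 24.6 ± 2.47 scaled TPM in WT CNTL, 25.2 ± 2.42 in WT HFHS, 24.9 ± 3.47 in GPx4+/- CNTL and 26.1 ± 3.23 in GPx4+/- HFHS. The values spanned 21.1 to 27.4, 23.2 to 29.1, 20.8 to 30.2 and 21.1 to 29.2 and overlapped throughout. Over both genotypes the log2 difference was 0.054 (95% confidence interval -0.092 to 0.20, limma adjusted p = 0.686). The gene (chr6:124663027-124704418, plus strand) overlaps Emg1 on the opposite strand, and its leading transcript shares 334 of 2281 bases with Emg1. The library kit was stranded, but the sources used here do not state whether strand was used in quantification. Of 16 other genes of fatty acid activation and phospholipid remodelling, 14 were tested and none was called in either direction (median 0.052). The lower Acsl4 was thus not accompanied by a call in any other gene of that list.

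The coenzyme Q reductases had differences of opposite sign. Dhodh, which couples the fourth step of pyrimidine synthesis to the ubiquinone pool, had 13.6, 13.8, 11.9, 13.8 and 14.6 scaled TPM in WT CNTL and 12.3, 12.2, 12.9, 11.5 and 11.7 in WT HFHS. It had 11.9, 12.5, 13.1, 14.5 and 13.8 in GPx4+/- CNTL and 12.8, 8.79, 10.6, 11.5 and 9.27 in GPx4+/- HFHS. The GPx4+/- HFHS mice included the lowest values of the series, but both pairs of groups overlapped. Over both genotypes Dhodh fell by 0.23 (SE 0.059, limma adjusted p = 0.019), in each of the 10 alternative settings and each of the 20 fits without 1 mouse. It fell by 0.31 in GPx4+/- (SE 0.083, limma adjusted p = 0.0465), where the mean went to 80.5% of that on CNTL, while in WT the difference of -0.15 was not called (limma adjusted p = 0.37). The GPx4+/- call was lost in 6 of 11 alternative settings, the highest limma adjusted p being 0.155 when only the groups compared were fitted, and without GPx4+/- CNTL 1, 3, 4 or 5 or GPx4+/- HFHS 2, 3 or 5 (highest limma adjusted p = 0.127). Mitochondrial transcripts took 32.99%, 48.7%, 39.5%, 40.2% and 44.9% of the same GPx4+/- HFHS libraries, so the lowest Dhodh values were in the libraries with the highest shares. The mean share was 41.3% ± 5.95 on HFHS and 38.3% ± 3.50 on CNTL, and its part in the Dhodh difference was not tested. The call over both genotypes was also present without the 6 libraries (-0.29, limma adjusted p = 0.0166).

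Dhodh (chr8:109591343-109608673, minus strand) has 11 annotated transcripts, of which 3 are protein coding, and these carried 64.3% of its summed TPM. The leading coding transcript, Dhodh-201, went from 7.29 ± 0.911 to 6.25 ± 0.985 scaled TPM on HFHS diet in WT and from 7.88 ± 0.423 to 6.55 ± 0.532 in GPx4+/-. Most of the rest was assigned to the retained-intron transcripts Dhodh-204 and Dhodh-208. The Dhodh-204 level ranged in group means from 1.68 ± 0.933 in GPx4+/- CNTL to 3.39 ± 1.64 in WT CNTL. From the coding transcripts alone, the diet difference over both genotypes was -0.25 (limma adjusted p = 0.0171). None of the 7 other genes of pyrimidine synthesis was called (7 tested, median -0.057).

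Aifm2 had mean levels on HFHS diet that were above those on CNTL, without passing the test on the summed value. The WT CNTL mice had 16.8, 15.7, 19.1, 15.6 and 18.5 scaled TPM and the WT HFHS mice 16.4, 18.2, 25.5, 20.3 and 21.0. The GPx4+/- CNTL mice had 18.4, 15.1, 16.1, 18.3 and 16.8 and the GPx4+/- HFHS mice 19.3, 17.9, 20.8, 18.4 and 16.7. The groups overlapped in both genotypes, and WT HFHS 3 stood highest. The difference over both genotypes was 0.18 (SE 0.067, limma adjusted p = 0.104). When only protein-coding transcripts were summed it was 0.25 and was called (limma adjusted p = 0.0164), and it was also called without WT HFHS 1 (0.22, limma adjusted p = 0.0418). Aifm2-203, the leading of its 4 coding transcripts, had 9.68 ± 0.540 scaled TPM in WT CNTL, 12.1 ± 1.90 in WT HFHS, 9.33 ± 0.643 in GPx4+/- CNTL and 11.8 ± 0.953 in GPx4+/- HFHS. The retained-intron transcript Aifm2-207 took 9.23% ± 5.84 of the Aifm2 level in WT CNTL and 6.93% ± 2.66 in WT HFHS, and 8.77% ± 3.57 in GPx4+/- CNTL and 3.17% ± 2.14 in GPx4+/- HFHS. The gene (chr10:61715263-61739260, plus strand) is 18.3 Mb from Gpx4 on the same chromosome and overlaps H2afy2 on the opposite strand. Of 16 genes of coenzyme Q synthesis and reduction, all tested, only Nqo1 was called, a quinone reductase that rose by 0.23 over both genotypes (SE 0.067, limma adjusted p = 0.0376) and by 0.44 in GPx4+/- (limma adjusted p = 0.0139). Of all genes tested, 8.33% were called over both genotypes and 3.34% in GPx4+/-. The Nqo1 call over both genotypes was absent in 4 of 10 alternative settings and in 11 of 20 fits without 1 mouse. Nqo1 had 44.2 ± 4.19 and 44.8 ± 4.10 scaled TPM in WT CNTL and WT HFHS, and 34.6 ± 4.82 and 47.1 ± 5.40 in GPx4+/- CNTL and GPx4+/- HFHS.

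Gch1 was not detectably changed by diet. Its values were 2.11, 2.56, 1.66, 2.95 and 2.08 scaled TPM in WT CNTL, 2.16, 2.04, 2.15, 2.84 and 2.35 in WT HFHS, 1.91, 2.53, 2.47, 2.05 and 1.96 in GPx4+/- CNTL and 2.45, 2.39, 2.57, 2.02 and 2.77 in GPx4+/- HFHS. The 4 groups overlapped, with a difference of 0.083 over both genotypes (95% confidence interval -0.091 to 0.26, limma adjusted p = 0.586). Of 6 other genes of tetrahydrobiopterin synthesis and recycling, 5 were tested and 1 was called over both genotypes, where 8.33% of all genes were. This was Gchfr, the feedback regulator that binds the GCH1 protein, which fell by 0.35 (SE 0.091, limma adjusted p = 0.0227). Gchfr was 4.68 ± 0.460 scaled TPM in WT CNTL, 3.54 ± 0.802 in WT HFHS, 5.95 ± 1.10 in GPx4+/- CNTL and 4.65 ± 0.556 in GPx4+/- HFHS. It was called in all 20 fits without 1 mouse and in 6 of 9 alternative settings. Gch1 lies at chr14:47153895-47189413 on the minus strand, and 2 processed pseudogenes inside it were listed at mean levels of 0.243 and 0.0153 scaled TPM.

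Slc3a2 was, with Lpcat3, among the most abundant members, whereas its exchanger partner was below the level tested. Slc3a2 had 23.5, 30.3, 27.4, 26.5 and 22.7 scaled TPM in WT CNTL, 27.8, 29.7, 28.3, 27.6 and 25.2 in WT HFHS, 28.1, 23.9, 24.0, 25.7 and 23.3 in GPx4+/- CNTL and 25.5, 31.6, 26.7, 29.5 and 27.6 in GPx4+/- HFHS. The groups overlapped, and the difference over both genotypes, 0.13 (SE 0.053), was not called (limma adjusted p = 0.136). Slc7a11, the light chain that carries out the cystine exchange, had group means of 0.064 to 0.12 scaled TPM and a highest value of 0.273 in any mouse, below the level tested. Among 6 light chains that pair with Slc3a2, 4 were tested and none was called (median 0.054). Slc3a2 lies at chr19:8706882-8723369 on the minus strand.

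Ptgs2 was the least abundant member and was above 0 in all 25 mice. Its values were 0.223, 0.133, 0.436, 0.207 and 0.0535 scaled TPM in WT CNTL, 0.448, 0.265, 0.272, 0.285 and 0.0847 in WT HFHS, and 0.213, 0.413, 0.134, 0.133 and 0.229 with carnosine. In GPx4+/- mice they were 0.491, 0.242, 0.203, 0.133 and 0.242 on CNTL and 0.229, 0.628, 0.121, 0.276 and 0.199 on HFHS. All groups overlapped. By two-sided exact permutation tests of 5 against 5 mice, the log2 difference was 0.12 for diet in WT (p = 0.452), 0.038 for diet in GPx4+/- (p = 0.81), 0.11 for genotype on CNTL (p = 0.484), 0.021 for genotype on HFHS (p = 0.929), -0.087 for carnosine (p = 0.532) and 0.037 for HFHS with carnosine against CNTL (p = 0.802). The smallest p this design allows is 0.00794, and TPM carries no read depth, so no detection limit can be given. Of 10 other genes of prostaglandin synthesis, 8 were tested and none was called (median 0.13). Ptgs2 lies at chr1:150100031-150108227 on the plus strand.

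The remaining lists held iron handlers, lipoxygenases and other regulators. Of 18 listed genes of iron handling, 17 were tested, 3 rose and 1 fell over both genotypes. Tfrc, the transferrin receptor, rose by 1.32 (SE 0.20, limma adjusted p = 0.000403), from 5.72 ± 1.70 to 11.8 ± 5.82 scaled TPM in WT and from 4.08 ± 1.25 to 14.9 ± 3.70 in GPx4+/-. Within GPx4+/- mice Tfrc was called (1.75, limma adjusted p = 0.00243). Within WT mice none of the 17 was called, and Tfrc overlapped, at 3.49 to 7.22 on CNTL and 5.81 to 18.9 on HFHS. Prnp, whose protein has been linked to iron uptake, rose by 0.48 over both genotypes (SE 0.066, limma adjusted p = 0.000225). Steap3, an endosomal ferrireductase named after its value was seen, rose by 0.22 (SE 0.054, limma adjusted p = 0.0147), and Cp, the ferroxidase ceruloplasmin, fell by 0.35 (SE 0.082, limma adjusted p = 0.0119). Of 10 lipoxygenases and related oxidation genes, 5 were tested, and only Cyb5r1, a reductase that passes electrons to oxygen in lipid peroxidation, rose (0.12, limma adjusted p = 0.0363), a call lost in 4 of 10 alternative settings and in 11 of 20 fits without 1 mouse. Alox15 was below the level tested, with 0 listed in 2 WT CNTL mice and at most 0.189 scaled TPM in any mouse. Of 25 further regulators, 24 were tested: Map1lc3a (0.18, limma adjusted p = 0.00876) and Yap1 (0.15, limma adjusted p = 0.0106) rose, and Cisd2 (-0.18, limma adjusted p = 0.00493) fell. With TPM as deposited Map1lc3a, Yap1 and Steap3 were not called (highest limma adjusted p = 0.383), nor was Map1lc3a from coding transcripts alone (limma adjusted p = 0.341). Without the 6 libraries Cisd2, Steap3 and Cp were not called (highest limma adjusted p = 0.0892). Over all 11 lists, 20 of 123 tested genes were called over both genotypes, 16 higher and 4 lower, or 16.3% against 8.33% of all genes. These counts were 13 higher and 1 lower without the 6 libraries, and 6 higher and 5 lower with TPM as deposited. In WT alone 2 of 123 were called (1.63% against 1.18% of all genes), and in GPx4+/- 9 of 123 (7.32% against 3.34%). The lists were chosen with earlier results of these data known, so their shares are not independent of that choice.

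Of 54 tested markers of cell types, 4 were called over both genotypes, or 7.41% against 8.33% of all genes. In bulk tissue, a change in the number of cells of a type and in RNA per cell cannot be told apart. Over both genotypes 2 of 7 fibroblast markers rose (Lum 0.55 and Pdgfra 0.29, median 0.36 over the list), 1 of 6 endothelial markers rose (Cldn5 0.43) and 1 of 8 cardiomyocyte markers fell (Myh6 -0.17, median -0.13). Summed fibroblast markers ran from 269 to 534 scaled TPM in WT CNTL, 349 to 649 in WT HFHS, 312 to 477 with carnosine, 287 to 433 in GPx4+/- CNTL and 327 to 515 in GPx4+/- HFHS, and no marker on the list was at 0 throughout a group. No atrial (7 tested), smooth muscle (6), macrophage (7), hepatocyte (7), adipocyte (1) or red cell (5) marker was called, and no lymphocyte marker reached the level tested. The median log2 difference was nevertheless -0.86 over the atrial list, 0.57 over the smooth muscle list (0.88 in WT) and -0.36 over the hepatocyte list. Summed smooth muscle markers ran from 80.3 to 153 scaled TPM in WT CNTL, 113 to 545 in WT HFHS, 88.4 to 198 with carnosine, 104 to 159 in GPx4+/- CNTL and 85.3 to 265 in GPx4+/- HFHS. The part of these markers in the diet differences of Chac1, Dhodh and Acsl4 was not tested.

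The genotype comparison asked whether a lower Gpx4 level was accompanied by changes in the other systems. Gpx4 fell by 1.08 on the log2 scale over both diets (SE 0.061), while no member was called in GPx4+/- against WT mice on CNTL, on HFHS or over both diets. Of all genes, 0.0501% were called on CNTL (0.0167% higher and 0.0334% lower), 0.0501% on HFHS (0.025% in each direction) and 0.0584% over both diets (0.025% higher and 0.0334% lower). Over both diets the differences ran from -0.12 for Dhodh (95% confidence interval -0.24 to 0.0024, limma adjusted p = 1.00) to 0.031 for Lpcat3 (-0.12 to 0.18). The others were -0.062 for Aifm2 (-0.20 to 0.079), -0.032 for Chac1 (-0.20 to 0.14), -0.017 for Slc3a2 (-0.13 to 0.095), 0.016 for Gch1 (-0.16 to 0.19) and 0.019 for Acsl4 (-0.11 to 0.15). Dhodh on HFHS diet was at -0.20 (SE 0.083, limma adjusted p = 0.978), with overlapping groups. With protein-coding transcripts only, this difference was 0.0082 and that over both diets 0.066. None of the 123 tested genes of the 11 lists was called by genotype either. The median of the hepatocyte markers was 1.37 over both diets, with none called, and its part in these values was not tested.

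**Figure D3:**
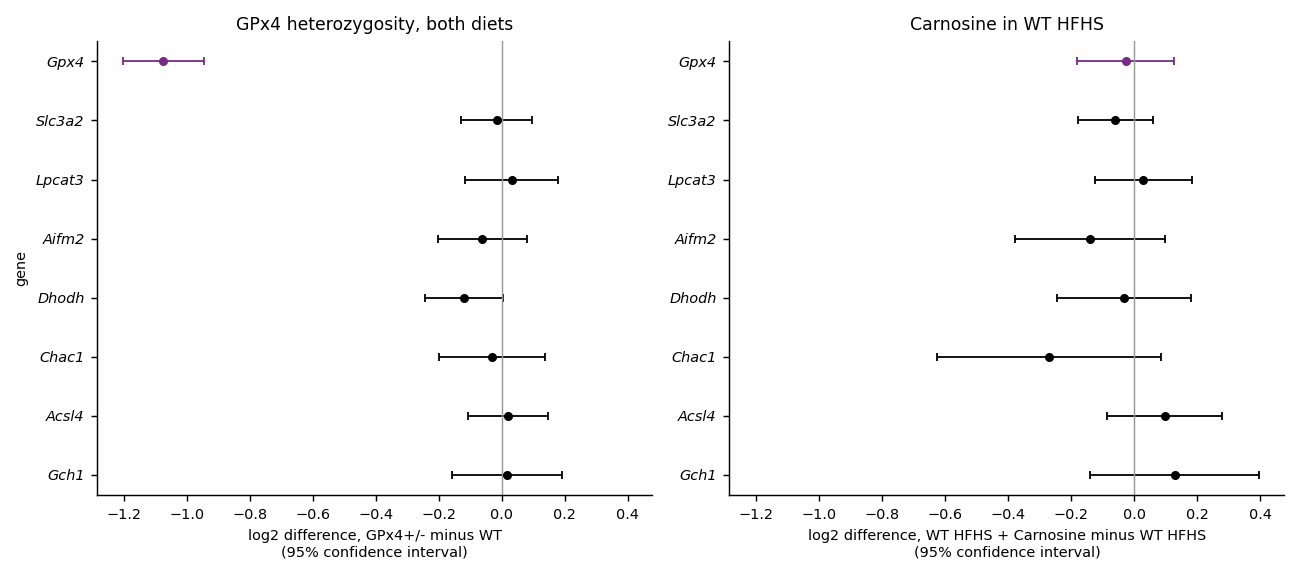
Log2 differences (x axes, with 95% confidence interval) of Gpx4 and the 7 tested members (y axes) for GPx4+/- against WT mice over both diets (left) and for carnosine within WT HFHS mice (right). Gpx4 lies at -1.08 on the left, whereas the intervals of all 7 members include 0 in both panels.

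The diet response of the members was also compared between genotypes. No gene of 11984 was called for the diet by genotype interaction (limma, smallest adjusted p = 0.482, with 856 genes at an unadjusted p under 0.05). For the members that fell on HFHS diet, the response in GPx4+/- minus that in WT was 0.20 for Chac1 (95% confidence interval -0.14 to 0.53), 0.13 for Acsl4 (-0.12 to 0.39) and -0.16 for Dhodh (-0.40 to 0.088), with limma adjusted p of 0.794, 0.822 and 0.777. That Chac1 was called in WT mice and Dhodh in GPx4+/- mice therefore does not show that their responses differed between genotypes.

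The carnosine comparison asked whether the dipeptide altered these genes in WT mice on the HFHS diet. No member was called, and neither was any of the 11984 genes (limma, smallest adjusted p = 0.947, with 505 genes at an unadjusted p under 0.05). Chac1 had 3.08, 4.10, 3.28, 5.26 and 2.44 scaled TPM with carnosine, against 3.59 to 4.99 without it. The groups overlapped, although 3 of the 5 carnosine mice lay below every WT HFHS mouse, and the difference was -0.27 (95% confidence interval -0.62 to 0.087). Acsl4 had 2.67, 2.58, 2.25, 2.18 and 2.11 with carnosine (0.097, interval -0.087 to 0.28). Dhodh had 11.5, 14.6, 9.74, 13.3 and 10.7 (-0.032, interval -0.25 to 0.18). Both overlapped WT HFHS. In this comparison no marker of another cell type was called, with list medians of -0.84 for smooth muscle, -0.20 for fibroblasts (all 7 markers below 0) and -0.26 for red cells, and their part was not tested. Aifm2 was at -0.14 (-0.38 to 0.097), Gch1 at 0.13 (-0.14 to 0.40), Slc3a2 at -0.059 (-0.18 to 0.059) and Lpcat3 at 0.029 (-0.12 to 0.18).

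Carnosine-treated WT mice were also set against WT CNTL mice, a comparison that shares its controls with that of diet in WT. Chac1 was lowest in the carnosine group, at 3.63 ± 1.09 scaled TPM or 55.0% of WT CNTL, with no overlap of the 5.36 to 7.63 in WT CNTL. The difference was -0.81 (SE 0.16, limma adjusted p = 0.0693), beside -0.54 for WT HFHS against the same controls. It was not called, where 0.234% of all genes were (0.184% higher and 0.0501% lower), but it was called when all 25 mice entered 1 fit (limma adjusted p = 0.00516) and with array weights (limma adjusted p = 0.0213). It was also called without carnosine mouse 4 (-0.94), whose value of 5.26 was the highest of its group. It stayed uncalled in 8 of 10 alternative settings (highest limma adjusted p = 0.2). The same held in 9 of 10 fits without 1 mouse (highest limma adjusted p = 0.151). Of the 28 genes called, 78.6% were higher, a share of 51.7% with TPM as deposited. Among the list genes only Mthfd2 rose in this comparison (0.96, SE 0.16, limma adjusted p = 0.0412), a call that was lost in 4 of 9 alternative settings and in 8 of 10 fits without 1 mouse. Marker medians were -0.72 for the atrial, 0.31 for the fibroblast, 0.30 for the macrophage and -0.31 for the hepatocyte list, with none called, and their part was not tested. The other members gave -0.18 for Acsl4 and Dhodh, 0.16 for Gch1, 0.085 for Aifm2, 0.068 for Lpcat3 and 0.033 for Slc3a2, none of them called.

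Variation within groups was compared among the members. After group means were subtracted, Pearson's r between pairs of the 7 tested members over the 25 libraries ran from -0.461 (Gch1 and Chac1) to 0.312 (Aifm2 and Chac1). For each member the 3 most similar of 11983 other genes were found in the same way, as a description of libraries that share depth and scaling. Lpcat3 was closest to Acsl1, the main long-chain acyl-CoA synthetase of heart (r = 0.882), Acot2, a mitochondrial acyl-CoA thioesterase (0.858), and Fitm2, a lipid droplet protein (0.854). Dhodh was closest to the mitochondrial proteins Prdx5 (0.853), Dele1 (0.852) and Aurkaip1 (0.848). Gch1 was closest to Cnot9 (0.856), Abhd17c (0.820) and Cct6a (0.801), and Acsl4 to Nek7 (0.814), Zfp943 (0.805) and Eif3e (0.794). Aifm2 was closest to Tnik (0.795), Mindy4 (0.795) and Eif4enif1 (0.752). Chac1 was closest to Ogfod2 (0.766), Idh1 (0.757) and Srp68 (0.726), and Slc3a2 to Sec61g (0.761), Kif3b (0.743) and Tns3 (0.736). With the genes of the ATF4 list, Chac1 had r from -0.456 (Asns) to 0.494 (Cebpb), and r with Atf4 was -0.213.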

How the data were processed

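The deposited table held TPM per transcript for 25 libraries. Per the labels, libraries were polyA RNA from left ventricle, made with a stranded kit and read as paired ends, and the submitters' processing notes name kallisto 0.43.1, sleuth 0.30.0 and GRCm38. Columns were matched to mice by the library number in the labels. Transcript TPM was summed per gene with GENCODE mouse M21 (116772 of 119215 transcripts matched), divided by a median-ratio factor per library and tested as log2(scaled TPM + 0.5) with limma 3.58.1, with Benjamini-Hochberg adjustment over 11984 genes with a mean of at least 1. The fit was checked on simulated data in which 200 genes were altered. Log2 changes of 0.25 were recovered in 42% of these for diet over both genotypes and 36.5% for genotype over both diets. The share was 18% for diet in WT and 0% for carnosine. At 0.5 the shares were 84%, 85.5%, 73% and 62% in the same order. Genotype and diet contrasts used the 20 mice without carnosine and carnosine contrasts used the 10 mice compared. Ptgs2, under the filter, had exact permutation tests. TPM keeps no read depth, so counting error could not be given, and p-values measure the spread between mice. The members and the gene lists were chosen with earlier results of these data known. Named genes were the 8 members, Gpx4, Slc7a11, Alox15 and, per list and comparison, up to 3 called genes with the smallest p. Near copies were sought with blastn 2.17.0 (90% identity over 150 bases).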

Additional observations from a re-analysis of the deposited data

Results flagged for a closer look

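In groups of 5, a mouse was singled out when its gap to the nearest other mouse exceeded 0.71 of the range of the group (Dixon's critical value). None of the 8 members had such a mouse in any group. Slc7a11 in WT HFHS + Carnosine mouse 5 had 0.185 scaled TPM where the next highest mouse of its group had 0.0606, a gap of 0.778 of the range. Alox15 in WT CNTL mouse 4 had 0.150 scaled TPM against at most 0.0185, a gap of 0.876. Both genes lie below the level tested, and 55 groups of values were searched, of which chance alone marks about 1 in 20.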

How the results depend on the processing

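Each result was recomputed under up to 11 alternative settings and without each mouse. Over all results and settings, 804 were unaltered (the same direction and side of the threshold or, for counts, within 1.5 times), 85 were no longer called, 5 became called, 13 reversed and 29 counts moved by over 1.5 times; without single mice these numbers were 1205, 145, 2, 24 and 34. Causes were not tested.

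For diet in WT, the 142 genes called became 43 with no filter, 38 with TPM as deposited, 405 with array weights and 74 when only the groups compared were fitted (36 to 202 without 1 mouse). The 1 member called (Chac1) became 0 with no filter, with all 25 mice and without the 6 libraries (0 to 1 without 1 mouse). For diet in GPx4+/-, the 400 genes became 235 with no filter and 124 with only the groups compared (191 to 484). The 1 member called (Dhodh) became 0 with no filter, quantile normalization, all 25 mice, only the groups compared and coding transcripts, and 2 (with Chac1) with TPM as deposited and array weights (0 to 1). For HFHS with carnosine against CNTL, the 28 genes became 0 with no filter, 51 with quantile normalization, 124 with array weights, 141 with all 25 mice and 53 with coding transcripts (4 to 78), and the 0 members became 1 with array weights and all 25 mice (0 to 1). Genotype called 3 genes in place of 6 on HFHS with coding transcripts, and 4 in place of 7 over both diets with a minimum of 5 or coding transcripts. The interaction called 0 to 1 genes without 1 mouse.

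Replicate numbers mark different animals, and same-numbered mice did not deviate together (25 correlations of -0.341 to 0.234, 5 over 0.1, 3 mice closest to their own number). With the replicate block, the 142 genes became 68, the 28 became 0, and Dhodh in GPx4+/- was not called (limma adjusted p = 0.0744), leaving 0 members there.

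Log2 differences that reversed belonged to uncalled members. With TPM as deposited these were Ptgs2 for diet in GPx4+/- (-0.00537) and genotype on HFHS (-0.00739), Lpcat3 for diet in GPx4+/- (-0.0352) and carnosine (-0.0419), and Gch1 for genotype over both diets (-0.000856). With array weights they were Gch1 for diet in WT (-0.0703) and genotype over both diets (-0.0105). With coding transcripts they were Dhodh for genotype on HFHS (0.00817), genotype over both diets (0.0658) and carnosine (0.0201), and Lpcat3 for carnosine (-0.0165). Without the 6 libraries they were Gch1 for diet in WT (-0.119) and Lpcat3 for carnosine (-0.00192). Without 1 mouse, Ptgs2 ran from -0.098 to 0.137 for diet in GPx4+/-, -0.115 to 0.101 for genotype on HFHS and -0.0498 to 0.142 for HFHS with carnosine against CNTL. Lpcat3 ran from -0.0146 to 0.0783 and Gch1 from -0.0543 to 0.115 for diet in WT, and Dhodh from -0.105 to 0.0353 for carnosine. For genotype over both diets, Acsl4 ran from -0.0106 to 0.0433, Lpcat3 from -0.0049 to 0.0672, Gch1 from -0.027 to 0.0576, Slc3a2 from -0.0403 to 0.0103 and Chac1 from -0.0659 to 0.00463. Fitting only the groups compared was not run for combined, interaction or carnosine contrasts. Ptgs2, Slc7a11 and Alox15 lie where TPM gives no measure of read depth.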
